A study of Sus scrofa with 12 samples.

Results

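The genes described here are 10 transcription factors of the gonad, NR5A1, NR5A2, NR0B1, GATA4, GATA6, FOXL2, NR2F1, NR2F2, RUNX1 and LHX9, in whole pig ovaries. They were taken by exact symbol from the gene table, which holds 29884 gene names, and all 10 were found. Left ovaries came from commercial sows on day 4 after delivery number 4, with 3 sows of small litter size (SLS, 8.48 ± 0.53 piglets per litter) and 3 sows of large litter size (LLS, 16.19 ± 0.43 piglets per litter). The SLS ovaries are called ZD2, ZD3 and ZD12 and the LLS ovaries ZD5, ZD7 and ZD8, with 1 library of ribosome-depleted RNA and 1 small RNA library from each. No agent or genetic change was given to either group, and neither age nor breed is used here. Levels are in FPKM, fragments scaled to transcript length and library depth. Different genes are set side by side on this scale, which depends on the transcript length taken for each gene.

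These factors set up and keep the steroid-producing and supporting cells of the gonad. NR5A1 (steroidogenic factor 1) and NR5A2 (liver receptor homolog 1) are nuclear receptors that bind the same DNA sequence and switch on genes of cholesterol uptake and steroid synthesis, and NR0B1 (DAX1) is a receptor-like protein that represses them. GATA4 and GATA6 are zinc finger proteins that work with NR5A1 at many of the same genes. FOXL2 keeps granulosa cells, the cells that surround the oocyte, from taking on features of the testis, and RUNX1 is made by granulosa cell precursors. NR2F1 and NR2F2 (COUP-TFI and COUP-TFII) are orphan nuclear receptors of stromal and theca cells, and LHX9 is a LIM homeobox factor of the early gonad and its surface.

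The totals of the 6 gene libraries, worked back from the FPKM values, were 32272803 to 60903268 reads, with the lowest in the LLS ovary ZD8. That ovary stood apart from the other 5, and the group differences are therefore also given without it. Summed over 7 luteal markers, its level was 124 FPKM, against 9167 to 10808 FPKM in the SLS ovaries and 10859 and 12191 FPKM in ZD7 and ZD5, and ZD8 was the lowest ovary for 6 of the 7. PRLR, the prolactin receptor, was the exception. Over 5 theca markers the sum was 462 FPKM in ZD8, against 51.1 and 66.7 FPKM in the other LLS ovaries and 74.5 to 144 FPKM in SLS. In ZD8 most of this sum was INSL3 (298 FPKM), and ZD8 was the highest ovary for 3 of the 5 and the lowest for 2. Over 9 granulosa markers the sum was 195 FPKM in ZD8, 452 and 586 FPKM in the other LLS ovaries and 616 to 1062 FPKM in SLS. The inhibin subunit INHA and follistatin (FST) made up most of it outside ZD8. Of the 9 markers, ZD8 was the highest ovary for 2, FSHR and AMH, and the lowest for 3. Aromatase (CYP19A1) was at 0 in every ovary but ZD5, where it was at 0.0137 FPKM. In whole ovaries, fewer cells of a type and less RNA per cell cannot be told apart.

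**Figure D1:**
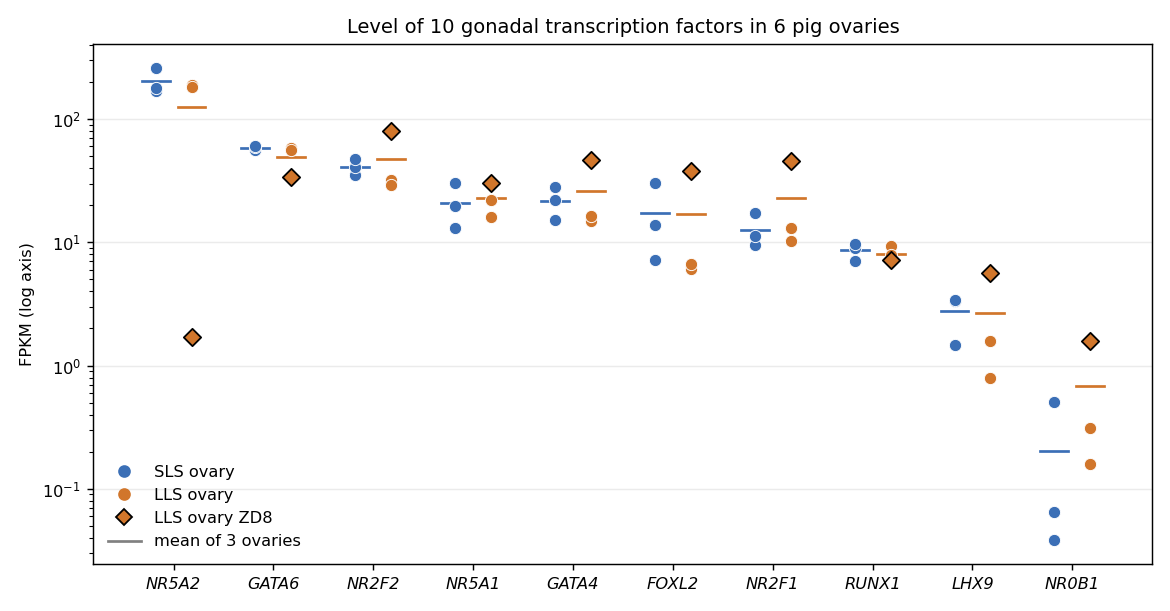
Level of each of the 10 genes in the 6 ovaries, in FPKM on a log axis. Each point is 1 ovary, diamonds are the LLS ovary ZD8 and short lines are means of 3 ovaries. NR5A2 was at 1.69 FPKM in ZD8 and at 168 FPKM or more in the other 5, while ZD8 was the highest ovary for NR2F1, NR2F2, GATA4, FOXL2, LHX9, NR0B1 and NR5A1.

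NR5A2 was the most abundant of the 10 genes in 5 ovaries and next to the least abundant in ZD8. It lies on the plus strand of chromosome 10 (chr10:22727865-22866905, Sscrofa11.1), with 8 exons in its longest transcript. Its level was 168, 262 and 178 FPKM in ZD2, ZD3 and ZD12, and 191, 181 and 1.69 FPKM in ZD5, ZD7 and ZD8. The groups overlapped, and only ZD8 was far from the rest, with the lowest of the other ovaries at 99.3 times its level. The value of ZD8 rested on 273 reads (95% counting interval 242 to 307, exact Poisson), and those of the others on 47085 to 67692 reads. Counting error therefore covers little of the gap, and the interval holds counting error only. Among the genes tested, NR5A2 stood at percentiles 97.5 to 98.6 in the other 5 ovaries and at percentile 6.18 in ZD8. Among the 5 ovaries other than ZD8, the highest level was 1.56 times the lowest.

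The level of NR5A1 did not follow that of NR5A2. NR5A1 lies on the minus strand of chromosome 1 (chr1:265284491-265311547) in 7 exons. It was at 19.6, 13.1 and 30.1 FPKM in ZD2, ZD3 and ZD12 and at 16.0, 22.2 and 30.6 FPKM in ZD5, ZD7 and ZD8. The highest values were those of ZD8 and the SLS ovary ZD12, which were alike, and the groups overlapped. The ovary with the highest NR5A2, ZD3, had the lowest NR5A1.

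The 250 bases before the annotated start of NR5A1 are shown as an example, chosen after its matches to words of the GATA factors were seen. They are read from the RefSeq Sscrofa11.1 sequence, 5′ to 3′ on the strand of the gene, at chr1:265311548-265311797. Capitals mark the word AGATAG, 1 of the words searched on either strand, the others being the word AGATAA, the word TGATAA and the word TGATAG.
NR5A1: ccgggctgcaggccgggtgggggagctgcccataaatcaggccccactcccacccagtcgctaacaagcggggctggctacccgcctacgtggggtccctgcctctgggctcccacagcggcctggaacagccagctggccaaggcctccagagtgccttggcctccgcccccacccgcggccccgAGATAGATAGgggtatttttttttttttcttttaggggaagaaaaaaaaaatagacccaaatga
The window held 2 matches that overlap, which begin at positions -64 and -60 from the start. Of 19531 windows of this length before protein-coding genes, 20.1% held at least 1 match and 4.18% at least 2. The NR5A1 window did not hold the word AAGGTCA, the word AAGGCCA, the word AAGGTCG or the word AAGGCCG, those searched for the NR5A receptors, on either strand, which 12.6% of all windows did. A match of letters is a description, a chosen window says nothing of the 10 genes as a group, and no binding was measured in these ovaries.

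NR0B1, the repressor, was the least abundant of the 10 genes and did not pass the filter of 1 FPKM in 3 libraries. It lies on the X chromosome (chrX:26117874-26122951, minus strand) in 2 exons. Its level was 0.0649, 0.0382 and 0.511 FPKM in ZD2, ZD3 and ZD12 and 0.160, 0.314 and 1.59 FPKM in ZD5, ZD7 and ZD8. These values stood on 6, 3, 41, 14, 29 and 78 reads, so the ovaries at the low end are known only roughly. ZD8 was highest and ZD12 next, and the groups overlapped.

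GATA6 was the steadiest of the abundant factors, and GATA4 was not. GATA6 (chr6:107282709-107314725, plus strand, 7 exons) was at 55.8, 59.6 and 60.8 FPKM in SLS and at 58.7, 56.2 and 34.1 FPKM in LLS. Its highest level was 1.09 times its lowest over the 5 ovaries other than ZD8, and the lowest of these 5 was 1.64 times the level of ZD8. GATA4 (chr14:14858470-14938156, plus strand, 7 exons) was at 22.0, 15.3 and 28.1 FPKM in ZD2, ZD3 and ZD12 and at 15.0, 16.4 and 46.7 FPKM in ZD5, ZD7 and ZD8. Here ZD8 was the highest ovary, 1.66 times the next. In each of the other 5 ovaries GATA6 was above GATA4, and in ZD8 GATA4 was above GATA6.

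FOXL2 differed more among ovaries of the same group than between the groups. The gene is on the minus strand of chromosome 13 (chr13:79708693-79709825) and has an annotated model of 1131 bases. It was at 13.8, 7.25 and 30.6 FPKM in ZD2, ZD3 and ZD12 and at 6.11, 6.69 and 37.8 FPKM in ZD5, ZD7 and ZD8, from 398 to 1829 reads. The high ovaries were ZD12 and ZD8, 1 in each group, and ZD5 and ZD7 were below every SLS ovary. Granulosa markers did not all move with it. The FSH receptor FSHR was at 4.50 and 10.8 FPKM in ZD12 and ZD8 and at 0.202 to 2.68 FPKM in the other 4, and AMH, the anti-Müllerian hormone of small follicles, was at 7.21 and 12.01 FPKM against 0.208 to 1.82 FPKM. INHBB, HSD17B1 and the inhibin subunit INHA were highest in ZD12, at 84.6, 109 and 726 FPKM, and INHA was lowest in ZD8 (66.4 FPKM). Follistatin (FST) ran the other way, at 119 and 32.0 FPKM in ZD12 and ZD8 and 179 to 249 FPKM in the other 4. KITLG was lowest in ZD8 (5.37 FPKM), and AMHR2, at 6.09 FPKM there and 5.32 FPKM in ZD12, was highest in ZD2 (6.16 FPKM). The part of the number of granulosa cells in the level of FOXL2 was not tested.

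RUNX1 (chr13:198371835-198635648, minus strand) varied least of the 10 genes over all 6 ovaries. It was at 9.06, 9.72 and 7.06 FPKM in SLS and at 9.31, 7.88 and 7.13 FPKM in LLS, and its highest level was 1.38 times its lowest. ZD12 and ZD8, the ovaries with most FOXL2, had the lowest RUNX1, within a narrow range. The related RUNX2, a factor of granulosa cells near ovulation, was at 35.8 to 73.8 FPKM in SLS, at 45.4 and 51.2 FPKM in ZD7 and ZD5, and at 15.3 FPKM in ZD8.

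NR2F2 was above NR2F1 in every ovary, and both were highest in ZD8. NR2F2 (chr7:83076119-83090250, minus strand) was at 34.9, 40.5 and 47.9 FPKM in ZD2, ZD3 and ZD12 and at 31.9, 29.3 and 80.3 FPKM in ZD5, ZD7 and ZD8. NR2F1 (chr2:100447661-100457510, plus strand) was at 9.59, 11.3 and 17.2 FPKM in SLS and at 13.0, 10.3 and 45.3 FPKM in LLS. ZD8 was 1.68 times the next ovary for NR2F2 and 2.64 times for NR2F1. The theca genes INSL3, CYP17A1 and PTCH1 were at 298, 117 and 31.6 FPKM in ZD8, and in the other 5 ovaries at most at 45.1, 29.4 and 11.2 FPKM, each in ZD12. The other 2 markers of the theca list, NR4A1 and LHCGR, were lowest in ZD8, at 5.12 and 10.4 FPKM against 12.3 to 26.5 and 22.5 to 70.5 FPKM. Of 8 stromal markers, ZD8 was the highest ovary for 4, DCN (1854 FPKM against at most 859), PDGFRA (220 against at most 123), TCF21 (52.6 against at most 18.2) and DPT (11.03 against at most 2.80). It was the lowest for 3, the collagen genes COL1A1, COL1A2 and COL3A1, at 377, 466 and 451 FPKM. Summed over the 8, a sum that the collagens make up for the most part outside ZD8, ZD8 was at 3436 FPKM, the other LLS ovaries at 4068 and 4785 FPKM and SLS at 3788 to 9602 FPKM. The part of theca and stromal cells in these levels was not tested.

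LHX9 (chr10:20742323-20764006, plus strand) was low in every ovary. Its level was 1.48, 3.35 and 3.43 FPKM in ZD2, ZD3 and ZD12 and 1.58, 0.790 and 5.68 FPKM in ZD5, ZD7 and ZD8, from 212 to 807 reads. ZD8 was the highest ovary, 1.66 times the next, and ZD7 the lowest. WT1, which acts with LHX9 on NR5A1 in the early gonad, was at 88.6 FPKM in ZD8, at 26.6 FPKM in ZD12 and at 10.4 to 13.6 FPKM in the other 4.

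**Figure D2:**
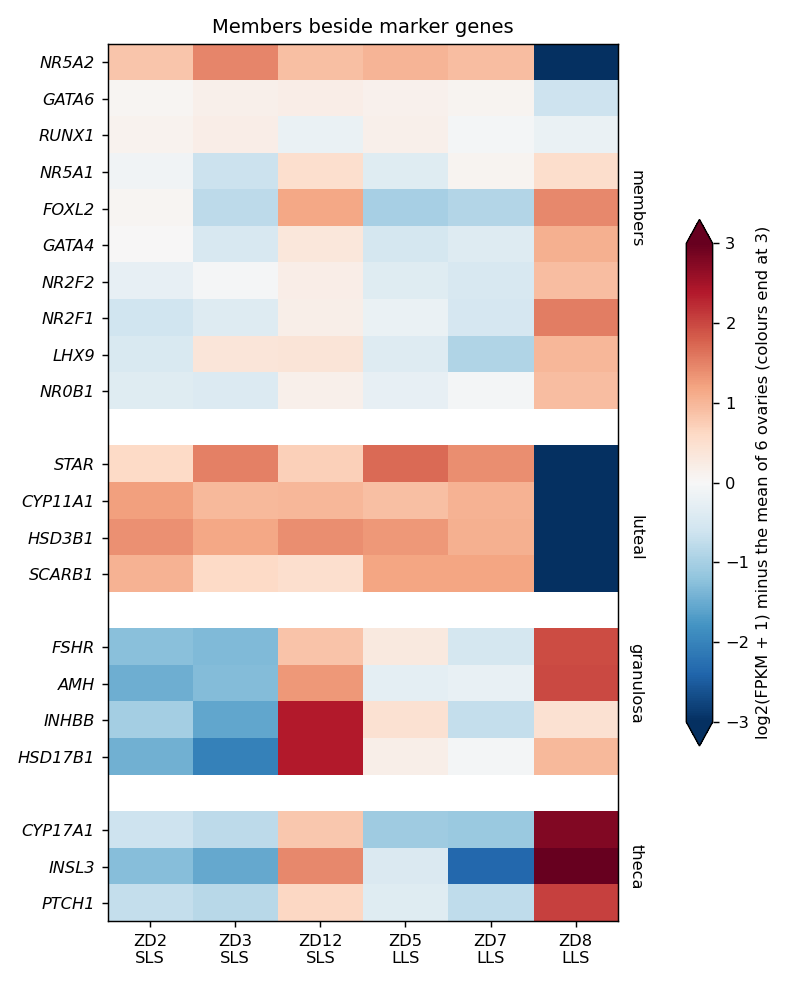
Each row is a gene and each column an ovary, and the colour is log2(FPKM + 1) minus the mean of the 6 ovaries, with colours ending at 3 in each direction. The upper block holds the 10 genes and the lower blocks a choice of luteal, granulosa and theca markers. Of the markers not drawn, PRLR is highest in ZD8, and INHA, FST, KITLG, NR4A1 and LHCGR are lowest there. NR5A2 is low in ZD8 as the luteal genes drawn are, and FOXL2, GATA4, NR2F1 and NR2F2 are at their highest there.

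The design asks whether the 10 genes differ between ovaries of small and of large litters, and in these 6 ovaries none passed the test. Of 12260 genes with at least 1 FPKM in at least 3 libraries, limma called 0 (0%) with both an adjusted p below 0.05 and a log2 fold change beyond 1 in either direction, and 9 of the 10 genes were among those tested. At an unadjusted p under 0.05 there were 216 genes (1.76%), none of the 9. edgeR's quasi-likelihood test on reads recovered from the FPKM values also called 0, with 220 at an unadjusted p under 0.05, and DESeq2 called 20, again none of the 9. Every LLS ovary was above every SLS ovary for 239 genes (1.95%) and below for 389 (3.17%), and for each of the 10 genes the groups overlapped.

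The adjusted p by limma was 0.999 for each of the 9 genes. NR5A2 was at 203 ± 51.5 FPKM in SLS and 124 ± 106 FPKM in LLS (SD, n = 3), a log2 fold change of -2.14 on the log2(FPKM + 1) scale with a standard error of 1.45 by limma. Its 95% interval, from -5.47 to 1.20, was the widest of the 9. Without ZD8 the difference was -0.10 (standard error 0.29), and DESeq2 gave -0.61 over all 6 ovaries. NR5A1 was at 20.9 ± 8.61 and 22.9 ± 7.30 FPKM in SLS and LLS, with a log2 fold change of 0.16 (standard error 0.37, interval -0.70 to 1.01). The exact permutation test, two-sided, gave p = 0.6 for NR5A2 and p = 0.7 for NR5A1, and 0.1 is the smallest p that 3 ovaries against 3 allow. For NR0B1, left out of the fit, the log2 difference was 0.41, at 0.205 ± 0.265 against 0.689 ± 0.787 FPKM (exact permutation p = 0.5), and 0.057 without ZD8.

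GATA4 was at 21.8 ± 6.40 FPKM in SLS and 26.0 ± 17.9 FPKM in LLS (log2 fold change 0.09, standard error 0.45), and GATA6 at 58.7 ± 2.63 and 49.7 ± 13.6 FPKM (-0.28, standard error 0.30, and -0.03 without ZD8). The spread within LLS exceeded the difference for both. FOXL2 was at 17.2 ± 12.02 and 16.9 ± 18.1 FPKM (-0.29, standard error 0.72), with nearly equal means and an interval from -1.94 to 1.36. NR2F1 was at 12.7 ± 3.98 and 22.9 ± 19.5 FPKM (0.54, standard error 0.52) and NR2F2 at 41.1 ± 6.50 and 47.2 ± 28.7 FPKM (0.05, standard error 0.41). RUNX1 was at 8.61 ± 1.39 and 8.11 ± 1.11 FPKM (-0.07, standard error 0.26), and LHX9 at 2.75 ± 1.11 and 2.68 ± 2.62 FPKM (-0.21, standard error 0.51). For these 7 genes the exact permutation p lay between 0.3 and 1. The median log2 fold change was -0.07 over the 9 genes and 0.02 over all genes tested. These values do not show that the groups are alike, since the intervals of most of the genes reach a change of 1 on the log2 scale.

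Without ZD8 the differences of FOXL2 and LHX9 moved away from 0. FOXL2 was then lower in LLS by a log2 fold change of -1.08 (standard error 0.46, interval -2.12 to -0.05), with an unadjusted p of 0.0418 and an adjusted p of 0.789 by limma. LHX9 had -0.75 (standard error 0.32, interval -1.47 to -0.04), with an unadjusted p of 0.0412 and an adjusted p of 0.787 by limma. Neither passed the test, and 709 of the 11985 genes tested (5.92%) had an unadjusted p under 0.05 in this fit. The fit called 20 genes (0.167%), none of the 9. Both remaining LLS ovaries were below every SLS ovary for FOXL2 and NR2F2, as for 1374 genes (11.5%), and above for none of the 9, against 903 genes (7.53%). NR2F2 then had -0.40 (standard error 0.24, unadjusted p = 0.125 by limma) and GATA4 -0.41 (standard error 0.28, unadjusted p = 0.181). NR5A1 had -0.07, NR2F1 -0.08 and RUNX1 0.0043. For FOXL2 and NR2F2 the exact permutation test, two-sided, gave p = 0.2 with 5 ovaries. For LHX9 the groups still overlapped, with ZD5 above ZD2, and the exact permutation p was 0.3.

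**Figure D3:**
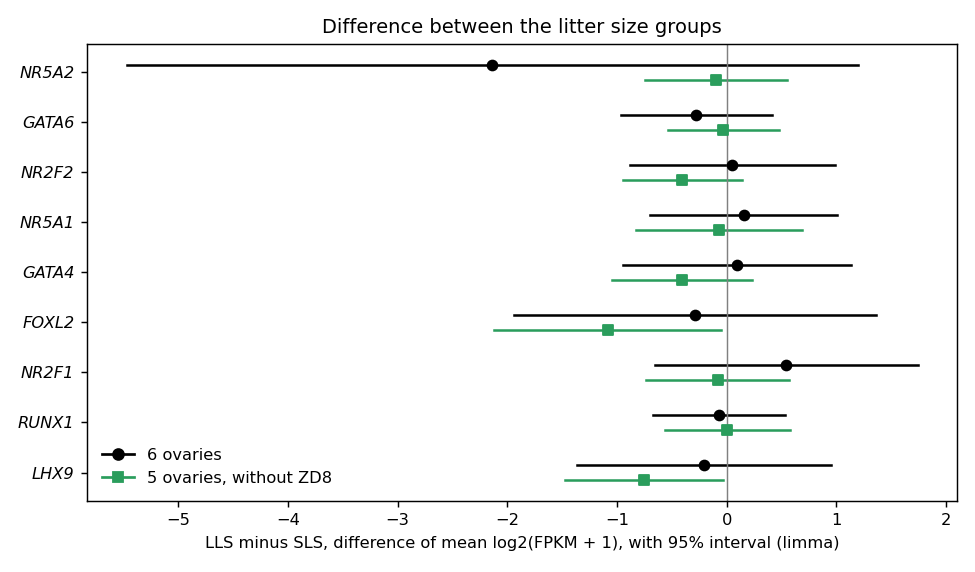
Difference of mean log2(FPKM + 1) between LLS and SLS for the 9 genes tested, with its 95% interval by limma. Black circles are the fit to 6 ovaries and green squares the fit to 5 ovaries without ZD8. All 9 intervals hold 0 with 6 ovaries, and those of FOXL2 and LHX9 lie below 0 without ZD8.

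The sign of the difference rested on single ovaries for several genes. Without ZD8, and also with array weights, which lower the weight of ovaries that vary more, it turned for NR5A1, GATA4, NR2F1, NR2F2 and RUNX1. The sign also turned without ZD3 for NR5A1 (-0.13), GATA4 (-0.13) and RUNX1 (0.0098), and without ZD2 for NR2F2 (-0.06). With array weights FOXL2 was at -1.35 (unadjusted p = 0.0063, adjusted p = 0.241 by limma). LHX9 was then at -0.71 (unadjusted p = 0.0425, adjusted p = 0.469 by limma). The difference was positive for FOXL2 without ZD12 (0.22), without ZD5 (0.14) or without ZD7 (0.08), and for LHX9 without ZD7 (0.19). NR5A2 reached -3.17 without ZD5 (unadjusted p = 0.0483, adjusted p = 0.996 by limma).

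The distance of ZD8 from the other ovaries was common among genes. ZD8 was the highest ovary for 5465 of the 12260 genes tested (44.6%) and, for 6 of the 9, NR2F1, NR2F2, GATA4, LHX9, FOXL2 and, by a factor of only 1.01, NR5A1. It was the lowest for 3229 genes (26.3%), among them NR5A2 and GATA6. More than 1 on the log2 scale above the highest other ovary lay 895 genes (7.3%), of these 9 only NR2F1, and as far below the lowest lay 702 genes (5.73%), of these 9 only NR5A2. Among the 5 ovaries other than ZD8, ZD12 was the highest for 4858 genes (39.6%) and for 7 of the 9.

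Ratios within an ovary were compared between the groups for 5 pairs, with p-values adjusted over the 5. The log2 ratio of NR5A1 over NR5A2, with 1 FPKM added to each, was -3.04, -4.22 and -2.52 in ZD2, ZD3 and ZD12 and -3.49, -2.97 and 3.55 in ZD5, ZD7 and ZD8. ZD8 alone had more NR5A1 than NR5A2, at 18.1 times, while in the others NR5A1 was at 0.05 to 0.169 of NR5A2. The groups differed by 2.29 (exact permutation p = 0.5, two-sided, adjusted p = 0.833), and by 0.03 without ZD8. For GATA4 over GATA6 the log2 ratios were -1.31, -1.89 and -1.09 in SLS and -1.90, -1.71 and 0.44 in LLS, a difference of 0.37 (exact permutation p = 0.9) that turned to -0.38 without ZD8.

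The log2 ratio of NR2F1 over NR2F2 was higher in every LLS ovary than in every SLS ovary with 1 FPKM added to each, but not as a plain ratio of FPKM. With 1 FPKM added it was -1.76, -1.75 and -1.43 in ZD2, ZD3 and ZD12 and -1.23, -1.42 and -0.81 in ZD5, ZD7 and ZD8. The difference of 0.49 had an exact permutation p of 0.1, two-sided, the smallest that this design allows, and an adjusted p of 0.5. The plain ratio was 0.359 in ZD12 and 0.352 in ZD7, so the groups then overlapped, and with a pseudocount of 0.1 the exact permutation p was 0.2. Without ZD8 the difference was 0.32 (exact permutation p = 0.2). For FOXL2 over NR2F2, a granulosa factor over a stromal and theca factor, the log2 ratios were -1.28, -2.33 and -0.63 in SLS and -2.21, -1.98 and -1.07 in LLS. They differed by -0.34 (exact permutation p = 0.7), and by -0.68 without ZD8 (exact permutation p = 0.4). NR5A1 over NR0B1 differed by -0.26 (exact permutation p = 0.3), and by -0.13 without ZD8, a value set largely by the pseudocount, since NR0B1 was below 1 FPKM in 5 of 6 ovaries, and it was -1.07 with a pseudocount of 0.1.

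**Figure D4:**
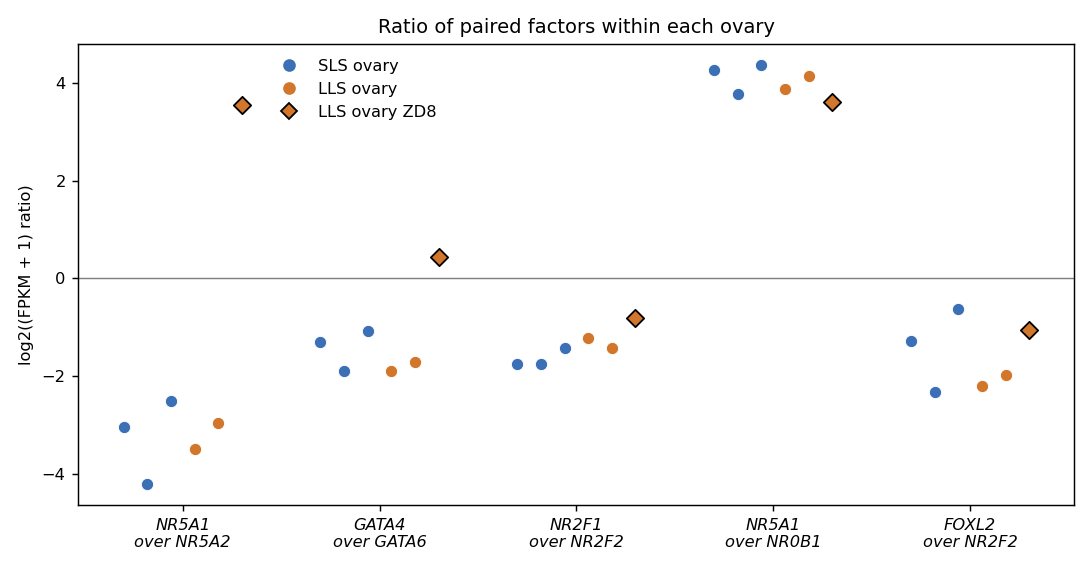
Log2 ratio of 5 pairs of factors within each ovary, with 1 FPKM added to each member of the pair. Points are ovaries in the order ZD2, ZD3, ZD12, ZD5, ZD7 and ZD8, and diamonds are ZD8. The ratio of NR5A1 over NR5A2 is 3.55 in ZD8 and between -4.22 and -2.52 in the other 5.

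In order of their mean level over the 6 ovaries the genes were NR5A2 (163 FPKM), GATA6 (54.2), NR2F2 (44.1), GATA4 (23.9), NR5A1 (21.9), NR2F1 (17.8), FOXL2 (17.0), RUNX1 (8.36), LHX9 (2.72) and NR0B1 (0.447 FPKM). Neighbours held their order in all 6 ovaries only for NR2F2 over GATA4, RUNX1 over LHX9 and LHX9 over NR0B1. GATA4 over NR5A1 and FOXL2 over RUNX1 held in 3 of 6 ovaries, and NR2F1 over FOXL2 in 4 of 6. The order of these neighbours thus changed between ovaries, and differences between genes were not tested. NR5A2 over GATA6, GATA6 over NR2F2 and NR5A1 over NR2F1 held in 5 of 6, the exception being ZD8 each time. In ZD8 the order began with NR2F2, GATA4, NR2F1 and FOXL2, and NR5A2 came at rank 9.

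Likeness of pattern was measured as the root mean square difference over the 6 ovaries between profiles of log2(FPKM + 1), each centred on its own mean, among 11214 named genes that passed the filter. For NR5A2 the nearest were CYP11A1, the side-chain cleavage enzyme that opens steroid synthesis (0.27), MGAM, a starch-digesting enzyme (0.34), and PTHLH, the parathyroid hormone-like hormone (0.41). MGAM was at 0.329 FPKM in ZD8 and at 77.4 to 116 FPKM in the other 5, and PTHLH at 0.260 against 35.7 to 67.5 FPKM. All 3 had the one low ovary of NR5A2. For GATA4 the nearest were SERPING1, the C1 inhibitor of complement (0.04), the phosphatase CTDSP1 (0.05) and the beta-catenin cofactor BCL9L (0.06), and for GATA6 MRLC2, a myosin light chain (0.05), ILDR2 (0.06) and CPPED1 (0.06).

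For FOXL2 no gene came nearer than PPP1R12B, a subunit of myosin phosphatase (0.16), ADIRF (0.20) and MXRA8 (0.23), which share its high values in ZD12 and ZD8. NR5A1 was nearest to the DNA polymerase POLL (0.07), TBC1D22A (0.08) and MRI1 (0.09). NR2F1 was nearest to IQCB1 (0.06), ACTR8 (0.07) and PHF21A (0.07), and NR2F2 to the autophagy gene ATG10 (0.04), DLG3 (0.05) and ENOSF1 (0.06). RUNX1 was nearest to PRRC1 (0.06), SEC23A (0.07) and KMT5A (0.08), and LHX9 to the homeobox gene MKX (0.13), SSPN (0.15) and DYNC2H1 (0.15). Among the 9 genes themselves the closest pairs were GATA4 with NR2F2 (0.24), GATA6 with RUNX1 (0.25), NR2F2 with LHX9 (0.27), NR5A1 with GATA4 (0.31) and NR2F1 with NR2F2 (0.32). With 6 ovaries of which ZD8 stands apart, these are descriptions, and a small distance is easier to reach for a gene that varies little.

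Genes known to be regulated by NR5A1 and NR5A2 were counted in a list of 18, of which 14 passed the filter. None was called, and INHA and LHCGR, the receptor for luteinizing hormone, had an unadjusted p under 0.05, as 1.76% of all genes tested did. INHA was at 553, 376 and 726 FPKM in SLS and at 285, 162 and 66.4 FPKM in LLS, with no overlap, a log2 fold change of -1.86 (standard error 0.58, adjusted p = 0.999 by limma). LHCGR was at 27.8, 70.5 and 46.1 FPKM in SLS and at 22.5, 24.2 and 10.4 FPKM in LLS, with no overlap either (-1.28, standard error 0.43, adjusted p = 0.999 by limma). Such a separation, with LLS below SLS, was seen in 3.17% of all genes tested. Without ZD8 the differences were -1.30 for INHA and -0.92 for LHCGR. AMHR2, the receptor for AMH, had -0.75 (unadjusted p = 0.119 by limma), and without ZD8 -1.24 (unadjusted p = 8.33e-04, adjusted p = 0.143), with 1.51 and 1.66 FPKM in ZD5 and ZD7 against 4.01 to 6.16 FPKM in SLS. FSHR had 1.15 (unadjusted p = 0.167 by limma), and 0.46 without ZD8. The summed level of the 18 genes was 695 FPKM in ZD8 and 10559 to 12896 FPKM in the other ovaries, while 6 of the genes were highest in ZD8 and 7 lowest. The median log2 fold change was -1.02 with ZD8 and -0.11 without, against 0.02 and -0.10 over all genes tested. NR5A words were in the windows of FDX1, LHCGR, AMH, INSL3 and CYP21A2, 5 of the 18, against 12.6% of all windows.

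Of 22 partners and coregulators of the 10 proteins, 21 were tested and none was called or had an unadjusted p under 0.05. ZD8 was highest for 12 and lowest for 2. The smallest unadjusted p-values were those of the coactivators NCOA3 (0.224, log2 fold change 0.35) and NCOA1 (0.256, 0.46), of CEBPB (0.236, -0.79), a partner in luteinization, and of LDB1 (0.245, 0.51), which binds LIM homeobox factors. ZFPM2, the cofactor of GATA4, was at 12.4, 8.58 and 12.1 FPKM in SLS and at 5.69, 8.27 and 37.5 FPKM in LLS. Its highest ovary was ZD8, as for GATA4. Without ZD8 the differences were 0.18 for NCOA3, 0.05 for NCOA1, -0.06 for CEBPB and 0.07 for LDB1. The median log2 fold change of the list was 0.16, and -0.06 without ZD8.

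Of 35 other transcription factors of the gonad, 22 were tested and none was called or had an unadjusted p under 0.05. ZD8 was the highest ovary for 25 of the 35 and the lowest for 5, among them genes too low to be tested, and over all genes tested these shares were 44.6% and 26.3%. LHX2 was at 0 in every ovary. The smallest unadjusted p-values were those of the glucocorticoid receptor NR3C1 (0.182, log2 fold change 0.61), NR4A1 (0.218, -0.65), RUNX2 (0.246, -0.61) and the progesterone receptor PGR (0.308, -0.48). NR3C1 was at 32.8 FPKM in ZD8 and at 9.31 to 12.6 FPKM in the others, and PGR at 5.74 against 12.9 to 25.4 FPKM. Without ZD8 the differences were 0.13 for NR3C1, -0.14 for NR4A1, -0.08 for RUNX2 and -0.02 for PGR. The median of the list was 0.09, and -0.31 without ZD8, against -0.10 over all genes.

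Genes on the opposite strand lie beside or across some of the 10, and they were looked at after their values were seen. LOC110256304, a long noncoding RNA gene (chr13:79710405-79712216, plus strand) next to FOXL2 and without overlap, was at 2.19, 1.30 and 4.03 FPKM in ZD2, ZD3 and ZD12 and at 1.24, 1.36 and 16.0 FPKM in ZD5, ZD7 and ZD8. Its high ovaries were those of FOXL2. LOC102160410, a protein-coding gene that overlaps NR2F2 on the plus strand (chr7:83084234-83133203), was at 1.70, 2.51 and 2.75 FPKM in SLS and at 2.01, 1.30 and 13.0 FPKM in LLS, again with ZD8 far above the rest. LOC100525229, which overlaps the start of GATA6, was at 3.00 FPKM in ZD8 and at 3.80 to 4.60 FPKM in the others. The paper states that second-strand cDNA was removed when the libraries were made, which keeps the strand of the RNA. Whether the counting used strand is not given in the sources used here. It is therefore not known whether reads from overlapping genes on opposite strands were kept apart.

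**Figure D5:**
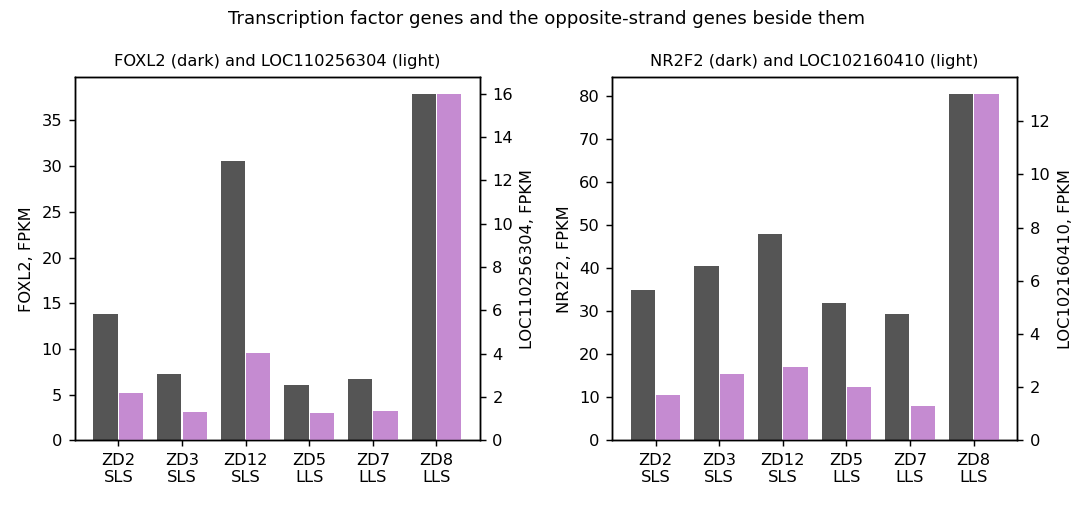
Level of FOXL2 and NR2F2 (dark bars, left axes) and of a gene on the opposite strand beside each (light bars, right axes), in FPKM, by ovary. Each axis starts at 0 and is scaled to its own gene. LOC110256304 and LOC102160410 are highest in ZD8, at 16.0 and 13.0 FPKM, as their neighbours are.

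The small RNA libraries held miRNAs whose genes lie within 500 kb of NR5A1 and GATA6. Their totals, worked back from the deposited values, were 3537619 to 9854086 reads. The mature sequences of these miRNAs are shown with the seed of each, bases 2 to 8, in capitals.
miR-181a: aACATTCAacgctgtcggtgagtt
miR-181b: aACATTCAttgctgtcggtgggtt
miR-133a-3p: tTGGTCCCcttcaaccagctg
miR-133a-5p: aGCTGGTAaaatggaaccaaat
The MIR181A-2 and MIR181B-2 loci are 186 kb and 188 kb from NR5A1, and miR-181a and miR-181b have the same seed. Each of the 4 miRNAs has 2 precursor genes in the pig, so the levels cannot be assigned to the locus near the transcription factor. In RPM, reads scaled to the library total, miR-181a was at 1727, 1868 and 4237 in ZD2, ZD3 and ZD12 and at 2122, 1834 and 3592 in ZD5, ZD7 and ZD8. ZD12 and ZD8 were highest, as for NR5A1, and the same held for miR-181b, at 289, 585 and 1471 RPM in SLS and 693, 473 and 1111 RPM in LLS. The groups overlapped, with log2 differences of 0.01 (exact permutation p = 1) and 0.18 (exact permutation p = 0.9). MIR133A-2 lies 284 kb from GATA6, and miR-133a-3p was at 26.2, 62.5 and 117 RPM in SLS and at 67.8, 11.4 and 149 RPM in LLS (exact permutation p = 1). The other strand, miR-133a-5p, was at 1.18 to 3.57 RPM (exact permutation p = 0.8).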

How the data were processed

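Left ovaries of 3 SLS and 3 LLS sows were used, with 1 gene library and 1 small RNA library each. Reads were aligned by the authors to Sscrofa11.1 with HISAT2 (genes) and BWA (small RNA), per the labels, and the deposited gene values are FPKM. The deposited miRNA values were called TPM by the authors and are RPM, reads scaled to the library total. The counting program, its use of strand and the gene annotation are not given in the sources used here.

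From the FPKM, whole reads were recovered by means of the longest RefSeq transcript, in full for 23477 of the 23546 expressed genes that had a length (99.7%, tolerance 0.001 reads). Genes with at least 1 FPKM in at least 3 libraries were tested as log2(FPKM + 1) by limma 3.58.1 (R 4.3.3) with a variance trend and Benjamini-Hochberg adjustment over all genes, and a gene was called with an adjusted p below 0.05 and a log2 fold change beyond 1 in either direction. DESeq2 1.42.0 and edgeR 4.0.16 were run on the recovered reads as alternatives. The test was tried on simulated data first, in which no single ovary stood apart, so the trial does not cover a case like ZD8. Levels and ratios were compared by the exact two-sided permutation test. P-values measure the spread between sows, 1 ovary each. Named were the 10 genes, the 3 genes nearest in pattern to each, and from the lists of NR5A targets, partners and other gonadal factors the 4 with the smallest p. Others, such as RUNX2, WT1, ZFPM2 and the neighbouring genes, were added after values were seen. Marker lists of granulosa, theca, luteal, stromal, endothelial, smooth muscle, immune, oocyte and surface epithelial cells were summed. The members and lists were chosen with earlier results of these data known. Alternatives were another pseudocount, no filter, equal-sum scaling, median centring, quantile normalization, array weights, no trend and leaving out each ovary. GATA and NR5A words were searched on both strands in the 250 bases before 19531 protein-coding genes, and the windows of some of the 10 genes are not reported here.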

Additional observations from a re-analysis of the deposited data

How the results depend on the processing

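The count of genes called was 0 under the main settings, 13 with array weights (6 higher and 7 lower in LLS) and 20 by DESeq2 (11 higher and 9 lower). Leaving out 1 ovary at a time it ranged from 0 to 20, with calls only without ZD8 (14 higher and 6 lower). At an unadjusted p under 0.05 the count ranged from 91 to 1252 over all settings. None of the 9 genes tested was called under any setting run. Of the log2 fold changes of the 9 genes, those of NR5A2 and GATA6 kept their sign under every setting run but not their size. With array weights NR5A2 was at -0.18 and GATA6 at -0.06, and without ZD8 at -0.10 and -0.03. The 5 ratios were run only with the main settings, with a pseudocount of 0.1 and without each ovary. Under these, NR5A1 over NR5A2, NR2F1 over NR2F2 and NR5A1 over NR0B1 kept their sign but not their size. With array weights the log2 fold change was -0.25 for NR5A1, -0.51 for GATA4, -0.12 for NR2F1, -0.40 for NR2F2 and 0.070 for RUNX1, while the median of all genes moved from 0.02 to -0.12. Leaving out 1 ovary at a time, it ranged from -0.13 to 0.45 for NR5A1, -0.41 to 0.38 for GATA4, -1.08 to 0.22 for FOXL2, -0.083 to 0.93 for NR2F1, -0.40 to 0.31 for NR2F2, -0.20 to 0.0098 for RUNX1 and -0.75 to 0.19 for LHX9. The log2 ratio of GATA4 over GATA6 ranged from -0.38 to 0.79, that of FOXL2 over NR2F2 from -0.80 to 0.053. The cause was not tested. No paired analysis was possible because the ovaries came from different sows and the replicate numbers used here only name the samples within a group. Depth limits NR0B1 most, at 3 to 78 reads.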

Other observations

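The remaining marker lists were summed over the same ovaries. Oocyte markers, of which 9 of 10 were in the table, summed to 129 FPKM in ZD8 and to 6.54 to 23.3 FPKM in the other 5 ovaries, and all 9 were highest in ZD8. Endothelial markers summed to 136 FPKM in ZD8, against 300 and 424 FPKM in ZD5 and ZD7 and 287 to 357 FPKM in SLS, with 6 of 7 lowest in ZD8. Smooth muscle and pericyte markers summed to 884 to 1969 FPKM in SLS and to 604 to 1047 FPKM in LLS. Without ZD8, 5 of the 7 had an unadjusted p under 0.05 by limma, with a median log2 fold change of -0.95, and none was called, against 5.92% of all genes and a median of -0.10. Immune markers summed to 24.7 to 43.6 FPKM in SLS and to 28.8 to 40.3 FPKM in LLS. Surface epithelial markers, of which 7 of 8 were in the table and 3 passed the filter, summed to 6.46 to 50.5 FPKM in SLS and to 13.0 to 30.4 FPKM in LLS, with KLK11 at 0 in every ovary. Without ZD8, 1 of the 3 was called, against 0.167% of all genes. It was EPCAM, an adhesion molecule of epithelia, higher in LLS by 3.47 on the log2 scale, at 27.8 and 9.73 FPKM in ZD5 and ZD7 and 0.312 to 1.28 FPKM in SLS, while the keratins KRT8 (-1.88) and KRT19 (-2.05) had differences of the other sign.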
